A study of Mus musculus with 8 samples.

Results

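The insulin-like growth factor (IGF) genes of the deposited count table were examined across the cell classes of the mouse hippocampus and between mice developmentally exposed to lead (Pb) and control mice (Ctl). The members were chosen by name: the ligands Igf1 and Igf2, the receptor Igf1r and the binding proteins Igfbp2 to Igfbp7. All 9 were found among the 17143 genes of the table. They were proposed with earlier results of the same data in view, among them a higher Igfbp3 level with Pb in a vessel cluster, so their Pb against Ctl differences are given as descriptions without a test.

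The study asked how Pb exposure during development affects the cells of the hippocampus. Both groups were wildtype (a/a) mice aged 5 months, born to a/a dams mated with a/a males, and each group held 2 females (F1, F2) and 2 males (M1, M2). The dams of the Pb group drank water with 32 ppm Pb-acetate for 2 weeks before mating and then through gestation and lactation, and their weaned offspring received Pb-free water. The control dams were not given Pb, and their offspring were kept in the same way. The treatment label of the control mice is control diet, and the dams of both groups are given as 5 weeks old. One library of single cells was made per mouse. Offspring were kept as 1 male and 1 female per litter, but no label ties a mouse to a litter, so whether mice of the 2 sexes were littermates was not known. Hippocampal cells were dissociated after saline perfusion, frozen, thawed and captured on a 10x Chromium instrument, so the measured classes are those that survived these steps.

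IGF1 and IGF2 are secreted peptides that activate the IGF1 receptor, a tyrosine kinase that signals through insulin receptor substrates, PI3 kinase and AKT. The IGF binding proteins hold the ligands in the extracellular space, prolong their life and limit or direct their access to the receptor, and proteases release the ligand again. In the adult brain IGF2 and IGFBP2 are known from the choroid plexus and the meninges, and IGF1 from myeloid cells and neurons.

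After filtering, 5175 cells remained, 3555 from Pb mice and 1620 from Ctl mice, with 471 to 1157 cells per Pb mouse and 211 to 567 per Ctl mouse. The libraries held between 1749079 and 8508064 unique molecular identifiers (UMIs), each of which marks 1 captured transcript. Of 5199 distinct cell barcodes, 32 occurred in more than 1 mouse. The cells formed 24 clusters, which were named from marker genes and written as "-like", and 2 clusters stayed unnamed. One of these, cluster 1 with 569 cells, was led by hemoglobin genes and carried all 8 endothelial markers and 5 of 6 listed artery markers. The Choroid plexus-like cells came almost entirely from 3 mice, with 38 in Pb F1, 10 in Ctl F2 and 46 in Ctl M2, against 1 in Pb M1 and none in the other 4 mice. All 9 IGF genes were among the clustering genes, so the differences between classes below are descriptions, and levels are CPM, the UMIs of a gene scaled to a common total per class. Values of a class within a mouse are given where that mouse had at least 10 of its cells.

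Igf1 was scarce: 98 UMIs in 55 of the 5175 cells (chr10:87858265-87937042, plus strand, in the GRCm38 annotation). Perivascular macrophage-like cells, the macrophages that line vessels, held 49 of these UMIs although they were 57 of the 5175 cells. Their pooled level was 141 CPM, with an exact Poisson interval of 104 to 186 CPM that covers counting error only. Of the 2 mice with at least 10 such cells, Pb F1 had 77.7 CPM and Pb M1 132 CPM, and no Ctl mouse had enough of them. Fibroblast-like cells, which come from the meninges and large vessels, followed with 17 UMIs and a pooled level of 44.8 CPM (26.1 to 71.7). Of these UMIs 15 came from Pb M1 and 2 from Pb F1, in 5 cells, 1 of which held 8. After thinning each cell to 1000 UMIs, 4.55% of Fibroblast-like cells had an Igf1 UMI, under the 6.82% that a count of 0 allows. The class level thus rests mainly on 1 mouse. In Microglia-like cells the mean was 1.33 ± 1.27 CPM (SD, n = 8 mice). An Igf1 UMI was seen in 0.697% of Microglia-like cells and in 0.260% of Oligodendrocyte-like cells, at median depths of 5221 and 6800 UMIs. After each cell was thinned to 1000 UMIs these shares were 0.155% and 0.0867%, both at or under the 0.232% and 0.260% that a count of 0 allows, so microglial expression could not be told from background at this depth.

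Igf2 (chr7:142650766-142666816, minus strand) and Igfbp2 (chr1:72824503-72852474, plus strand), which encodes a secreted binding protein with high affinity for IGF2, were found mainly in the same 2 classes. Choroid plexus-like cells held 62.5% of all 3944 Igf2 UMIs and 71.6% of all 5923 Igfbp2 UMIs while making up 1.84% of the cells. In these cells Igf2 was at 1169 CPM in Pb F1, against 979 CPM in Ctl F2 and 1313 CPM in Ctl M2. Igfbp2 was at 1457 CPM in Pb F1, against 1513 CPM in Ctl F2 and 2672 CPM in Ctl M2. With 1 Pb mouse the groups cannot be compared in this class. The 44 Fibroblast-like cells had a pooled Igf2 level of 1037 CPM (Poisson interval 937 to 1145) and a pooled Igfbp2 level of 2101 CPM (1958 to 2252). Across the 16 classes with at least 20 cells, the levels of Igf2 and Igfbp2 correlated at r = 0.82, a description over classes that share libraries. Reads of the antisense gene Igf2os overlap Igf2, and no source used here states the strand setting of the counting, but Igf2os had 16 UMIs in all.

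Outside these 2 classes, Igf2 was steady in pericytes and Igfbp2 in astrocytes. In Pericyte-like cells, the contractile cells of capillaries, Igf2 was at 117, 164, 105 and 97.5 CPM in Pb F1, F2, M1 and M2, against 85.9, 110, 113 and 170 CPM in Ctl F1, F2, M1 and M2. The 2 groups overlapped. Ctl M2, with the most Choroid plexus-like cells, was highest, and Pb F2, with none, was next. In Astrocyte-like cells Igfbp2 was at 261, 181 and 157 CPM in Pb F1, M1 and M2, against 350, 169 and 228 CPM in Ctl F1, F2 and M2, and the groups overlapped. The other mice, Pb F2 and Ctl M1, had 9 Astrocyte-like cells each and were left out.

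In Microglia-like cells both genes were highest in the 3 mice with the most of the choroid plexus transcript Ttr, which encodes transthyretin. In Microglia-like cells Igf2 was at 36.6, 1.35, 7.42 and 2.67 CPM in Pb F1, F2, M1 and M2, against 0, 11.3, 0 and 88.9 CPM in Ctl F1, F2, M1 and M2. Ttr in the same cells was at 4565, 9.48, 162 and 348 CPM in those Pb mice, against 17.2, 3254, 20.5 and 17044 CPM in those Ctl mice. The 3 highest mice for both genes were the 3 with at least 10 Choroid plexus-like cells. In these 3 mice there were 0.802, 0.347 and 0.521 Igf2 UMIs per 100 Ttr UMIs in Microglia-like cells of Pb F1, Ctl F2 and Ctl M2, and 0.984, 0.608 and 0.980 in their Choroid plexus-like cells. Igfbp2 in Microglia-like cells was at 25.9, 1.35, 7.42 and 3.56 CPM in Pb F1, F2, M1 and M2, against 8.58, 14.4, 11.4 and 96.5 CPM in Ctl F1, F2, M1 and M2. Among the 5 other mice Igfbp2 rested on few UMIs, 3 in Ctl F1 and 5 in Ctl M1, against 1, 9 and 4 in Pb F2, M1 and M2. Counts this low cannot order these mice or relate Igfbp2 to Ttr among them. Igfbp2 UMIs per 100 Ttr UMIs in Pb F1, Ctl F2 and Ctl M2 were 0.566, 0.442 and 0.566 in Microglia-like cells and 1.23, 0.940 and 1.99 in Choroid plexus-like cells. In Microglia-like cells all 7 listed choroid plexus markers had UMIs in Pb F1 and Ctl M2 and 6 of 7 in Ctl F2, against 2 to 4 in the other 5 mice. The part of free choroid plexus RNA in these values was not tested.

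**Figure D1:**
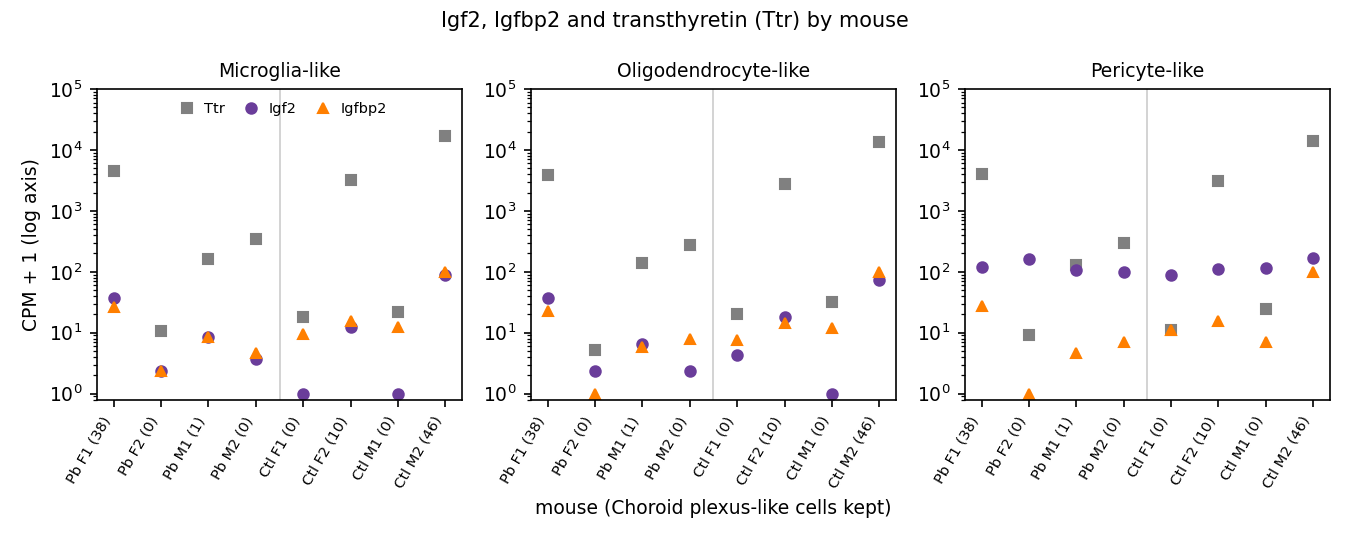
Igf2, Igfbp2 and Ttr in Microglia-like, Oligodendrocyte-like and Pericyte-like cells of each mouse, as CPM + 1 on a log axis, with Pb mice left of Ctl mice and the number of Choroid plexus-like cells in brackets. In Microglia-like cells Ttr, Igf2 and Igfbp2 peak together in Ctl M2 (17044, 88.9 and 96.5 CPM), while Igf2 in Pericyte-like cells stays between 85.9 and 170 CPM in all 8 mice.

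The receptor gene Igf1r (chr7:67952827-68233668, plus strand) was highest in cells of the vessel wall. In Endothelial-like cells it was at 839, 1234, 950 and 907 CPM in Pb F1, F2, M1 and M2, against 1018, 688, 657 and 1086 CPM in Ctl F1, F2, M1 and M2. The groups overlapped. Cluster 1 had 698 ± 103 CPM (SD, n = 8), below Endothelial-like cells in 8 of 8 mice, whose mean was 922 ± 195 CPM. Pericyte-like cells had 642 ± 133 CPM and Smooth muscle-like cells 317 ± 72.2 CPM (n = 6). The step between cluster 1 and Pericyte-like cells was smaller than the spread between mice, although cluster 1 was higher in 7 of 8. Endothelial-like cells, cluster 1 and Pericyte-like cells held 39.1%, 25.9% and 16.0% of the 11540 Igf1r UMIs. Thinned to 1000 UMIs, 54.5% of Endothelial-like cells had an Igf1r UMI, against 4.42% of Microglia-like cells, and Astrocyte-like cells stood between them at 15.8%. Before thinning the shares were 94.1%, 20.1% and 36.8%, at median depths of 4928, 5221 and 3059 UMIs.

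The Pericyte-like value held 2 unlike clusters. In cluster 4, with 202 cells, Igf1r was at 716 CPM and the 8 endothelial markers summed to 14027 CPM. In cluster 20, with 114 cells, Igf1r was at 96.8 CPM and those markers summed to 1775 CPM, against 20497 CPM in the Endothelial-like cells and 1059 to 1342 CPM in the oligodendrocyte and microglia clusters that all mice shared. Igf1r was higher in cluster 4 than in cluster 20 in each of the 8 mice, at 519 to 986 CPM against 50.1 to 267 CPM. Both clusters were led by pericyte genes such as Kcnj8, Vtn and Atp13a5. The Pericyte-like Igf1r level thus moved with endothelial transcripts, and whether cluster 4 held joined pericytes and endothelial cells was not tested. The Smooth muscle-like cells likewise had an endothelial marker sum of 11513 CPM, and its part in their Igf1r level was not tested.

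Igfbp7 (chr5:77349240-77408041, minus strand), whose protein binds insulin and IGFs weakly and lies in the vessel basement membrane, was the most widely detected member, with 35083 UMIs in 3707 cells. Smooth muscle-like cells had 3187 ± 361 CPM (n = 6), Pericyte-like cells 2653 ± 289 CPM, cluster 1 2437 ± 195 CPM and Endothelial-like cells 1384 ± 183 CPM (n = 8 each). Cluster 1 exceeded Endothelial-like cells in 8 of 8 mice, the reverse of their order for Igf1r. Pericyte-like cells exceeded cluster 1 in 7 of 8 mice, by less than the SD of Pericyte-like cells. Within the Pericyte-like class Igfbp7 ran against Igf1r: it was at 4521 CPM in cluster 20 and 2390 CPM in cluster 4, higher in cluster 20 in all 8 mice. Fibroblast-like cells had a pooled 795 CPM (708 to 890), and the glial classes were lower. Pooled levels were alike in unrelated classes, at 153 CPM in Microglia-like, 131 CPM in Oligodendrocyte-like and 136 CPM in Cajal-Retzius-like cells. The endothelial marker Cldn5 was at 203, 186 and 190 CPM in clusters 5, 2 and 13 of these classes. The part of free vessel RNA in their Igfbp7 was not tested. Microglia-like cells had 143, 139, 156 and 172 CPM in Pb F1, F2, M1 and M2, against 160, 171, 203 and 105 CPM in Ctl F1, F2, M1 and M2. Oligodendrocyte-like cells had their lowest value in the same mouse, 66.9 CPM in Ctl M2, and their highest, 184 CPM, in Ctl M1. In Ctl M2, 69 of these 80 cells formed cluster 23, which no other mouse had. Over all cells Ctl M2 was also lowest, at 516 CPM, and Ctl M1 highest, at 1468 CPM.

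**Figure D2:**
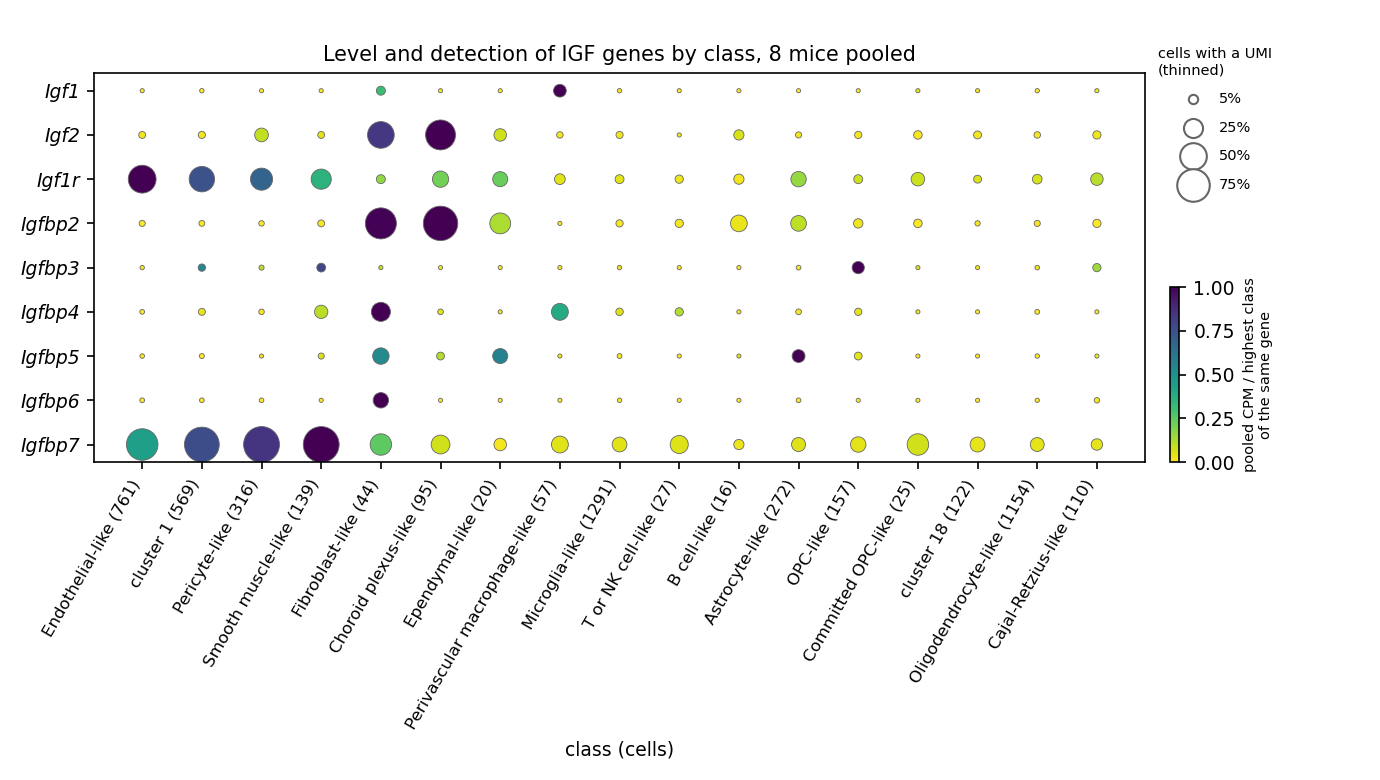
Level and detection of the 9 IGF genes in 17 classes with the 8 mice pooled. Colour gives the pooled CPM divided by the highest class of the same gene, dot size the percent of cells with a UMI after thinning to 1000 UMIs, and brackets the number of cells. Igf1r and Igfbp7 fill the 4 vessel columns on the left, Igf2 and Igfbp2 the Fibroblast-like and Choroid plexus-like columns.

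The start regions of 3 members are shown because Igf1r and Igfbp7 rank Endothelial-like cells and cluster 1 in opposite order and Igfbp3 is high in cluster 1 alone of the 2. Each window runs from 250 bases before to 50 bases after the RefSeq start of the gene (GRCm38.p6) and is written 5′ to 3′ on the strand of the gene. Capitals mark the GC box GGGCGG or CCGCCC, to which SP1-family factors bind, and the TATA box TATAAA was searched on both strands as well. The windows are chr7:67952007-67952306 (plus strand) for Igf1r, chr5:77407996-77408295 (minus strand) for Igfbp7 and chr11:7213874-7214173 (minus strand) for Igfbp3.
Igf1r: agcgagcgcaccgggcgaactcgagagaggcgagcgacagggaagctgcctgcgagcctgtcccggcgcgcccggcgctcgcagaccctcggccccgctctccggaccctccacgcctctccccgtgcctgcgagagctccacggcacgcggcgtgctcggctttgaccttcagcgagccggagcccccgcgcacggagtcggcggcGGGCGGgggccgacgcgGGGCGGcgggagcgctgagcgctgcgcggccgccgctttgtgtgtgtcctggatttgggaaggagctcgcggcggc
Igfbp7: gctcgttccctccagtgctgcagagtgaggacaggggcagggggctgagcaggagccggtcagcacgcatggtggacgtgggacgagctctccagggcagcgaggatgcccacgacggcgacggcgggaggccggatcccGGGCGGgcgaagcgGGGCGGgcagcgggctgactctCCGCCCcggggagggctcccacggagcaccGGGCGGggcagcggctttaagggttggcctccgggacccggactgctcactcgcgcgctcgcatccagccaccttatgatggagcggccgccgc
Igfbp3: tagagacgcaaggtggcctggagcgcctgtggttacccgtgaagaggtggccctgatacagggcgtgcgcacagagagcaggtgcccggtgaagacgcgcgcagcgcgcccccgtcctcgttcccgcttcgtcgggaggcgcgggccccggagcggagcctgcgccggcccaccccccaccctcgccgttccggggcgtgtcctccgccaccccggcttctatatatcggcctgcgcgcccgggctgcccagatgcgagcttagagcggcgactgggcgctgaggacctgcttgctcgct
The Igf1r window held 2 GC boxes, the Igfbp7 window 4 and the Igfbp3 window none, and a GC box occurs in 35.7% of all 32851 windows of this length. None of the 3 held the exact letters TATAAA on either strand, which occur in 13.6% of all windows. Other TATA-like stretches, such as tatatat in the Igfbp3 window, were not searched, so a TATA element there is not excluded. All 3 were rich in CG dinucleotides, with 48, 33 and 37 for Igf1r, Igfbp7 and Igfbp3, more than in 98.8%, 91.4% and 94.4% of all windows. Among the other members, Igfbp4 and Igfbp6 each had 1 match to TATAAA in their window, that of Igfbp6 on the opposite strand. A match describes these letters only and is not evidence that a factor binds there.

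Igfbp3 (chr11:7206086-7213923, minus strand), which encodes the main IGF carrier of blood, was restricted to a few classes: cluster 1 held 39.4% of its 553 UMIs and Smooth muscle-like and OPC-like cells 22.6% each. OPC-like cells, the oligodendrocyte precursors, had 87.0 ± 34.5 CPM (SD, n = 5 mice) and Smooth muscle-like cells 63.5 ± 33.8 CPM (n = 6), which overlap. Endothelial-like cells, in contrast to cluster 1, had 0, 0, 3.47 and 1.81 CPM in Pb F1, F2, M1 and M2, against 0, 1.49, 0 and 0 CPM in Ctl F1, F2, M1 and M2. Thinned to 1000 UMIs, 9.55% of OPC-like cells, 4.32% of Smooth muscle-like cells and 2.64% of cluster 1 cells had an Igfbp3 UMI. In Endothelial-like cells this was 0.131%, under the 0.394% that a count of 0 allows. Before thinning the shares were 42.7%, 36.0%, 14.8% and 0.788%, at median depths of 8871, 10100, 5875 and 4928 UMIs.

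Igfbp4 (chr11:99041244-99054392, plus strand), which holds IGFs until the protease PAPP-A cleaves it, was highest in Fibroblast-like cells at a pooled 579 CPM (Poisson interval 505 to 661). Perivascular macrophage-like cells followed at 224 CPM (177 to 280). Of the 220 Igfbp4 UMIs in Fibroblast-like cells 1 cell held 67, and 91 came from Pb F1 and 84 from Pb M1. An Igfbp4 UMI was seen in 36 of the 44 cells of that class. Smooth muscle-like cells had a pooled 59.1 CPM (48.1 to 71.8) and the 27 T or NK cell-like cells 69.8 CPM (31.9 to 132), which overlap. In Microglia-like cells it was at 35.6, 21.7, 33 and 25.8 CPM in Pb F1, F2, M1 and M2, against 20, 31.9, 27.4 and 29.2 CPM in Ctl F1, F2, M1 and M2. The groups overlapped. Thinned to 1000 UMIs, 2.79% of Microglia-like cells had an Igfbp4 UMI, against 0.433% of Oligodendrocyte-like cells, and before thinning the shares were 14.4% and 2.77%. Among myeloid cells, Igf1 and Igfbp4 were thus both higher in Perivascular macrophage-like than in Microglia-like cells.

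Igfbp6 (chr15:102144362-102149511, plus strand), whose protein prefers IGF2, had most of its UMIs in Fibroblast-like cells, which held 72.1% of its 229 UMIs at a pooled 434 CPM (371 to 506). These lay in 11 of the 44 cells, and 1 cell held 53 of the 165 UMIs, so a few cells carried the class value. Over all cells Igfbp6 had 65 UMIs in Pb F1, 69 in Pb M1, 75 in Ctl F2 and 20 in Ctl M2. It had 0 in Pb F2, Pb M2, Ctl F1 and Ctl M1, although Pb M2 and Ctl M1 had 4 Fibroblast-like cells each. The pattern was thus not seen in every mouse. No class with at least 3 mice averaged more than 5.31 CPM, the mean of Choroid plexus-like cells. Igfbp6 was among the 10 genes that led the Fibroblast-like cluster, so this contrast is partly how the class was drawn.

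Igfbp5 (chr1:72857932-72874884, minus strand), the neighbour of Igfbp2 on chromosome 1, had 50.3% of its 579 UMIs in Astrocyte-like cells, most of them in 1 small cluster. In Astrocyte-like cells it was at 89.2, 453 and 157 CPM in Pb F1, M1 and M2, against 227, 216 and 685 CPM in Ctl F1, F2 and M2. The groups overlapped. Cluster 10, 17 of the 272 Astrocyte-like cells, held 216 of their 291 Igfbp5 UMIs at 1655 CPM. That cluster was led by Myoc, Gfap, Igfbp5 and Aqp4, and its cells came from Pb M1 (11), Pb M2 (1), Ctl F2 (1) and Ctl M2 (4). Single cells weighed heavily: 1 cell gave 20 of the 23 UMIs of Ctl F2. In the other 255 Astrocyte-like cells Igfbp5 was at 89.2, 81.7 and 125 CPM in Pb F1, M1 and M2, against 227, 30.4 and 39.0 CPM in Ctl F1, F2 and M2. Ependymal-like and Fibroblast-like cells also had it, at pooled levels of 170 CPM (99.1 to 272) and 161 CPM (123 to 206). The pooled level of those 255 Astrocyte-like cells was lower, at 91.6 CPM (72.0 to 115), with an interval that overlaps that of Ependymal-like cells.

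**Figure D3:**
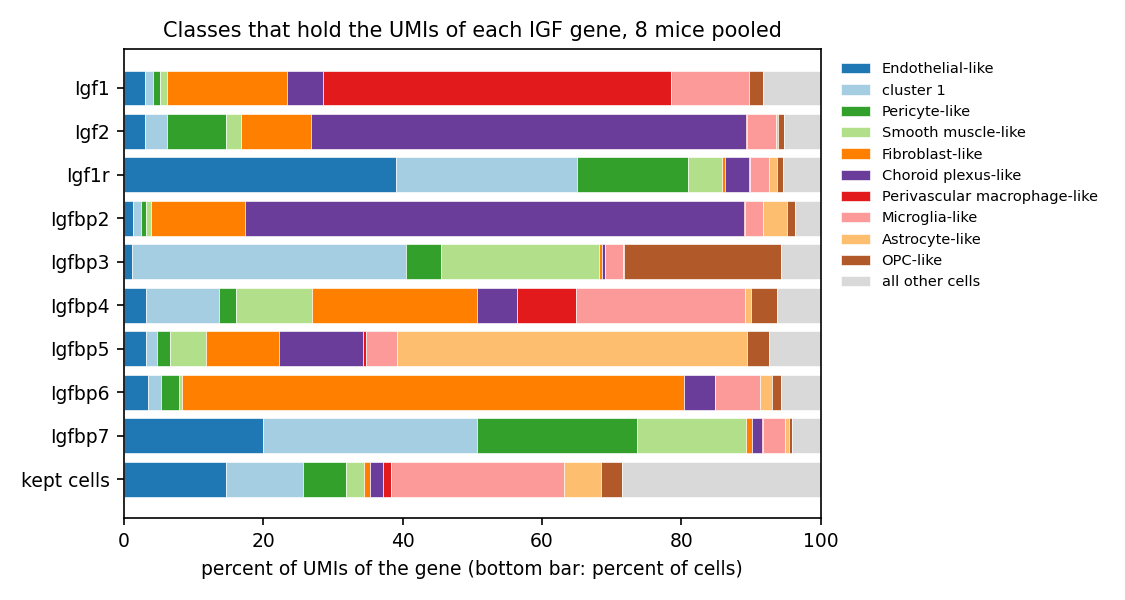
Percent of the UMIs of each IGF gene that came from each class, 8 mice pooled, with the share of each class among the kept cells in the bottom bar. Choroid plexus-like cells give 62.5% of Igf2 and 71.6% of Igfbp2 UMIs, Fibroblast-like cells 72.1% of Igfbp6 and Perivascular macrophage-like cells 49 of the 98 Igf1 UMIs.

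By pattern over the 16 classes, the genes most like each member out of 9018 were largely markers of the same classes. Igf1 was nearest to Rab7b (Pearson r = 0.957), Tgfbi and Ms4a7, all highest in Perivascular macrophage-like cells. Igf2 was nearest to Lamb1 (0.952), Slc5a5 and Pcolce, and Igfbp2 to A2m (0.969) and Slc13a4. Igf1r was nearest to Crip2 (0.963), to Slc2a1 (0.956), which encodes the glucose transporter of the blood-brain barrier, and to Palm. Igfbp7 was nearest to Ehd2 (0.984), to Cdh5 (0.981), which encodes VE-cadherin of endothelial junctions, and to Rras. Igfbp3 was nearest to Lypd1 (0.934), Cdh13 and Cspg4, Igfbp4 to Thbs1 (0.948), Timp1 and Clmp, and Igfbp5 to Slc41a1 (0.952), Ccdc80 and Prodh. For Igfbp6, nearest to Slc47a1 and Inmt at 0.988 each, the value rests on Fibroblast-like cells.

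Between Pb and Ctl mice, Igfbp3 in cluster 1 was the one member and class in which the groups did not overlap among the 34 that could be fitted. Its level was 103, 59.8, 58.3 and 37.3 CPM in Pb F1, F2, M1 and M2, against 21.2, 23.6, 23.2 and 8.97 CPM in Ctl F1, F2, M1 and M2. The mean was 64.7 ± 27.8 CPM in Pb mice and 19.2 ± 6.93 CPM in Ctl mice (SD, n = 4 each), and the fitted log2 fold change was 1.70 (SE 0.30). In that cluster 1.63% of the 6915 genes tested had each Pb mouse above each Ctl mouse, and 1.42% had each below. Nothing is read from this since the contrast chose the gene. In the other fitted units the shares of genes above and below were 2.37% and 1.08% over all cells, 1.35% and 1.29% in Endothelial-like, 1.18% and 1.55% in Microglia-like, 1.55% and 1.29% in Oligodendrocyte-like and 1.52% and 1.17% in Pericyte-like cells. With 3 mice a group they were 6.56% and 4.84% in Astrocyte-like and 3.91% and 4.06% in Cajal-Retzius-like cells.

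The UMIs were unevenly spread over cells. In Pb F1, 1 cell held 46 of the 74 Igfbp3 UMIs and a second held 14. The share of cluster 1 cells with any Igfbp3 UMI was 12.9%, 14.5%, 21.1% and 14.1% in Pb F1, F2, M1 and M2, against 14.3%, 14.1%, 10.0% and 3.23% in Ctl F1, F2, M1 and M2. These shares overlapped between the groups. With the highest cell of each mouse left out, an alternative added after the data were seen, the level was 39.4, 40.8, 51.5 and 30.6 CPM in those Pb mice, against 14.7, 17.8, 11.7 and 0 CPM in those Ctl mice. The 0 of Ctl M2 follows from its having 1 cell with Igfbp3. The fitted log2 fold change was 1.25 when the 3 mice with at least 10 Choroid plexus-like cells were left out, and 1.42 to 1.94 when each mouse was left out in turn.

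In the other classes with Igfbp3 the comparison was thinner. Smooth muscle-like cells had 46.0, 93.9, 115 and 55.8 CPM in Pb F1, F2, M1 and M2, against 43.3 and 27.0 CPM in Ctl M1 and M2, with 4 to 45 UMIs behind each value. Ctl F1 and F2 had 7 and 6 such cells, under the limit of 10, and were left out. Ctl F1 had 18 Igfbp3 UMIs in its 7 cells, beside 14 in the 24 cells of Pb F1, and Ctl F2 had 5. The order of the groups in this class thus depends on that limit. OPC-like cells had 77.4, 38.6, 93.1 and 91.3 CPM in Pb F1, F2, M1 and M2, against 135 CPM in Ctl F2, the one Ctl mouse with at least 10 of them. The direction in OPC-like cells was thus opposite, from a single Ctl mouse. Over all cells Igfbp3 was at 16.7, 15.7, 22.9 and 11.2 CPM in Pb F1, F2, M1 and M2, against 18.3, 11.8, 10.1 and 4.27 CPM in Ctl F1, F2, M1 and M2, and the groups overlapped. In values over all cells, fewer cells of a type and less RNA per cell cannot be told apart.

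**Figure D4:**
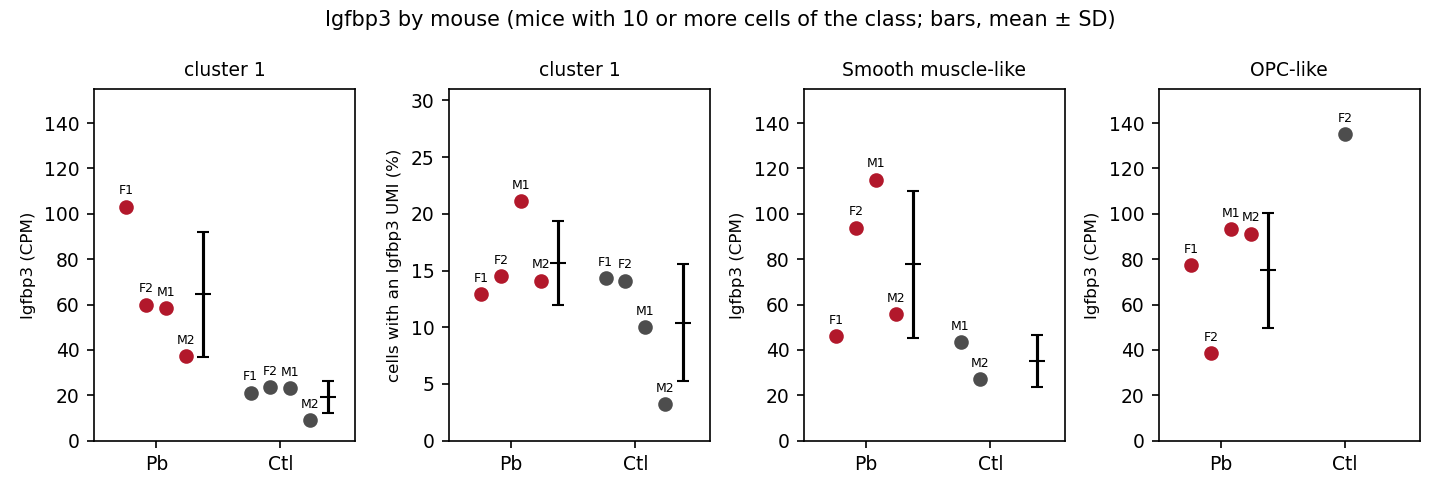
Igfbp3 in cluster 1, Smooth muscle-like and OPC-like cells as CPM per mouse, and the percent of cluster 1 cells with an Igfbp3 UMI, Pb mice in red and Ctl mice in grey with the mean and SD beside them. In cluster 1 the Pb mice lie between 37.3 and 103 CPM and the Ctl mice between 8.97 and 23.6 CPM, while the percents of cells overlap.

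The vessel genes Igf1r and Igfbp7 were close in the 2 groups where they were highest. Igf1r had a log2 fold change of 0.18 (SE 0.17) in Endothelial-like cells, 0.13 (SE 0.14) in cluster 1 and 0.09 (SE 0.18) in Pericyte-like cells. Igfbp7 had 0.13 (SE 0.13), 0.07 (SE 0.11) and 0.07 (SE 0.13) in the same 3 classes. In cluster 1 Igf1r was at 734, 917, 630 and 660 CPM in Pb F1, F2, M1 and M2, against 703, 608, 602 and 731 CPM in Ctl F1, F2, M1 and M2. These groups overlapped, and no test is read from the 6 fold changes.

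The larger negative values lay in Igfbp2, Igf2 and Igfbp5, and they moved when 1 mouse or 1 cluster was left out. Igfbp2 had a log2 fold change of -1.52 (SE 0.70) in Microglia-like cells, which was 0.09 without Ctl M2 and -3.34 without Pb F1, the 2 mice richest in Choroid plexus-like cells. In Oligodendrocyte-like cells it was -1.72 (SE 0.74), and -0.01 without Ctl M2. Of the 80 Oligodendrocyte-like cells of Ctl M2, 69 formed cluster 23, which no other mouse had. Igfbp2 was at 101 CPM there, against 11.3 and 11.6 CPM in the 2 other Oligodendrocyte-like clusters, which held 7 and 4 cells of Ctl M2. In Ctl M2 Igfbp2 was also at 96.5 CPM in Microglia-like, 96.4 CPM in Pericyte-like and 76.2 CPM in Endothelial-like cells and 49.3 CPM in cluster 1. Cluster and mouse thus cannot be told apart in this contrast. Igf2 in Oligodendrocyte-like cells was -1.09 (SE 0.87), which was 0.99 without Ctl M2 and -3.35 without Pb F1. Igf2 in Pericyte-like cells was -0.02 (SE 0.22). Igfbp5 in Astrocyte-like cells was -1.16 (SE 0.33), and 0.29 with cluster 10 left out. Igfbp7 in Astrocyte-like cells was 0.35 (SE 0.41), which was -0.66 without Ctl M2 and 2.30 without Pb F1.

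The number of members that passed the count filter for the Pb against Ctl fits is given with the percent of all genes that edgeR called at an adjusted p under 0.05, and no test of the members is read from it. The members were 8 over all cells (0%), 6 in cluster 1 (0%), 4 each in Microglia-like (0%), Oligodendrocyte-like (0%) and Astrocyte-like cells (0.0358%), 3 each in Endothelial-like (0%) and Pericyte-like cells (0%), and 2 in Cajal-Retzius-like cells (0%). At an unadjusted p under 0.05 edgeR counted 622 of 12989 genes over all cells. At an adjusted p under 0.05 DESeq2 called 15 genes over all cells, against 0 with edgeR.

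**Figure D5:**
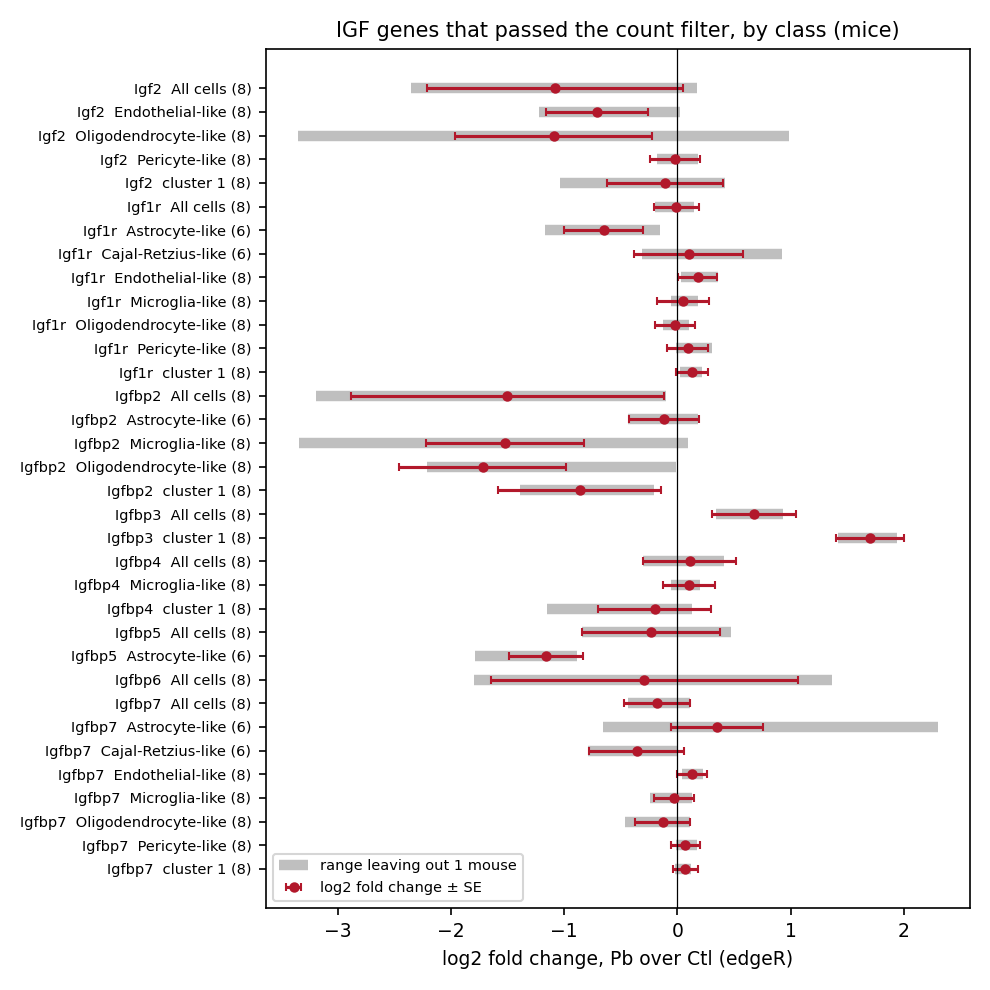
log2 fold changes of Pb over Ctl from edgeR for each IGF gene and class that passed the count filter, with 1 SE as whiskers, the range when each mouse is left out in turn as grey bars, and the number of mice in brackets. Igfbp3 in cluster 1 stands at 1.70 with a range of 1.42 to 1.94, and the grey bar of Igf2 in Oligodendrocyte-like cells runs from -3.35 to 0.99.

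Sex was tested in the same fits. Of the members tested, Igfbp5 in Astrocyte-like cells was higher in males, with a log2 fold change of 1.72 (SE 0.34) and an edgeR adjusted p of 0.0164, from 3 males and 3 females. In that class 0.287% of 2790 genes were called. The 3 males were at 453 (Pb M1), 157 (Pb M2) and 685 CPM (Ctl M2), against 89.2 (Pb F1), 227 (Ctl F1) and 216 CPM (Ctl F2) in the 3 females, and the sexes overlapped. Cluster 10 gave 16 of its 17 cells to males, and with it left out, an alternative likewise added later, the log2 fold change was -0.21 (SE 0.51, edgeR adjusted p = 0.981). DESeq2 gave 1.70 (SE 0.45) with an adjusted p of 0.0919, and without Ctl F1 edgeR gave an adjusted p of 0.0557 and without Ctl F2 0.612. Igfbp3 in cluster 1 had a male over female log2 fold change of -0.64 (SE 0.27), which missed the threshold (edgeR adjusted p = 1.000). Igfbp4 in the same cluster had 1.55 (SE 0.50), which also missed it (edgeR adjusted p = 0.916).

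No other member was called between the sexes. The percent of all genes called was 0.0385% over all cells, 0.220% in Endothelial-like, 0.0616% in Microglia-like, 0.0639% in Oligodendrocyte-like, 0.100% in Pericyte-like and Cajal-Retzius-like cells each and 0.0578% in cluster 1.

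Whether the Pb difference itself differed between males and females was tested in the 6 units with 4 mice a group. No member was called by edgeR or DESeq2. Of all genes, 2 were called in Pericyte-like cells (0.0306%) and none over all cells, in Endothelial-like, Microglia-like or Oligodendrocyte-like cells or in cluster 1 (0% each). At an unadjusted edgeR p under 0.05 there were 7 of 31 member values, all of Igf2 or Igfbp2. These are 2 genes repeated over units that share mice, so they are not independent. All genes under it were 419 of 13398 over all cells, 252 of 7751 in Endothelial-like and 310 of 8646 in Microglia-like cells. They were 258 of 8300 in Oligodendrocyte-like cells, 286 of 6532 in Pericyte-like cells and 258 of 7432 in cluster 1. In Microglia-like cells the values of Igf2 and Igfbp2 were -4.82 (SE 1.57) and -3.83 (SE 1.19), both with an edgeR adjusted p of 1.000. Without Pb F1 they were -0.89 and -0.36, and without Ctl M2 they were 3.76 and -1.43. Those 2 mice held 84 of the 95 Choroid plexus-like cells and are a Pb female and a Ctl male.

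The wider pathway list named 45 genes, of which 39 were in the table, and none passed the edgeR test in any of the 3 contrasts, nor with DESeq2. For Pb against Ctl 5 of 175 edgeR tests of a gene in a unit had an unadjusted p under 0.05. Among all genes these were 622 of 12989 over all cells, 330 of 7277 in Endothelial-like, 354 of 8119 in Microglia-like and 343 of 7821 in Oligodendrocyte-like cells. They were 261 of 5991 in Pericyte-like, 167 of 2790 in Astrocyte-like and 40 of 1997 in Cajal-Retzius-like cells and 318 of 6915 in cluster 1. The genes Insrr, Igfbpl1, Igfals, Pappa, Pappa2 and Irs4 were not analysed here. Over all cells 35 were tested for Pb against Ctl, with 12 above 0 and a median log2 fold change of -0.11, beside -0.02 over all 12989 genes. In Endothelial-like cells 26 were tested, with 13 above 0 and a median of 0.00, and in cluster 1 28 were tested, with 12 above 0 and a median of -0.06. The insulin receptor gene Insr was highest in Endothelial-like cells, at 122 ± 22.4 CPM in Pb mice and 127 ± 42.1 CPM in Ctl mice (SD, n = 4 each), with a log2 fold change of -0.04 (SE 0.21, edgeR adjusted p = 0.998). Htra1, a secreted protease that cleaves IGF binding proteins, was highest in Astrocyte-like cells, at 1947 ± 297 CPM in Pb mice and 1620 ± 226 CPM in Ctl mice (n = 3 each), a log2 fold change of 0.34 (SE 0.21, edgeR adjusted p = 0.856).

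Other genes of the list were highest in classes where they have no Pb against Ctl fit, because Choroid plexus-like cells were not fitted and the 3 genes of the other classes did not pass the count filter. The IGF2 scavenger receptor gene Igf2r averaged 73.4 ± 27.8 CPM and the adaptor gene Irs2 86.5 ± 3.80 CPM in Choroid plexus-like cells (n = 3 mice). Irs1 was at 25.8 ± 21.0 CPM and the growth hormone receptor gene Ghr at 43.8 ± 32.4 CPM in Astrocyte-like cells (n = 6). Igf2bp2, which encodes a binding protein of IGF2 mRNA, reached 5.63 ± 6.68 CPM in Cajal-Retzius-like cells (n = 6), a mean below its SD.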

How the data were processed

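Single-cell RNA libraries of 8 mice (4 Pb, 4 Ctl) were read from 1 table of raw UMI counts per gene and cell that the authors deposited. Per the submitters' processing notes the tools were Cell Ranger and Seurat and the build mm10; no source used here gives their versions or the strand setting. Every cell in the table had at least 999 genes and 1137 UMIs, and every gene at least 3 cells. Cells over 20% mitochondrial UMIs (53) were removed, and Scrublet called 33 doublets (0.628%), of which 30 were removed beside those. Counts were log-normalised, and 2000 variable genes, 30 components, 15 neighbours and Leiden at resolution 1.0 gave the clusters (scanpy 1.11.5). A cluster was named from marker lists with at least 3 detected markers. A cluster led by hemoglobin genes while carrying most markers of another type stayed unnamed, a rule added after the data were seen.

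UMIs were summed per mouse and class, with at least 10 cells per mouse and 3 mice per group. They were fitted with edgeR 4.0.16 (TMM, filterByExpr, sex as covariate, quasi-likelihood test, Benjamini-Hochberg over all genes tested). The SE was taken from the fold change and its F value. The test was run on simulated counts with large changes and the same spread between mice for every gene. It recovered 87.4% to 100% of the changed genes per unit, with 3 to 14 false calls. This does not cover genes that vary more between mice. DESeq2 1.42.0 and the other alternatives are described with their effects in the closing section. Levels are CPM of the class total, means ± SD over mice, and Poisson intervals (95%) and the limit of a count of 0 (3 counts) cover counting error only. The named genes were the 9 members, the 3 genes nearest to each by Pearson r of mean log2(CPM + 5) (some are not reported here), and a few genes of the pathway list in the class where they were highest. The genes whose class mean reached 50 CPM were compared for likeness. The members and lists were chosen with earlier results of these data known. Promoter windows are RefSeq's, matched by symbol for all 9 members.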

Additional observations from a re-analysis of the deposited data

Results flagged for a closer look

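Of 58 groups of 4 mice in which the highest or lowest value was set against the others, 3 had a gap above Dixon's 95% critical value, and chance flags about 1 in 20 groups. Igf2 in cluster 1 was at 67.3 CPM in Ctl M2, against 20.5 to 24.7 CPM in the other 3 Ctl mice. Igfbp3 in cluster 1 was at 8.97 CPM in the same mouse, against 21.2 to 23.6 CPM in the other 3 Ctl mice, and rests on 2 UMIs in 1 of 31 cells. Pb F1 had 38 Choroid plexus-like cells, against 0 to 1 in the other 3 Pb mice.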

How the results depend on the processing

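Over the 8 fitted units together, 1 gene was called for Pb against Ctl. This count was 25 with DESeq2, 172 with no filter on low counts, 69 without the 3 mice with at least 10 Choroid plexus-like cells (an alternative added after the data were seen, 6 units), and 1 to 17 when each mouse was left out, with 17 without Pb M1; the cause was not tested. With the replicate number as a replicate block it was 1 in 6 units. Deviations of same-numbered mice over all cells correlated at -0.55, -0.13, 0.09 and -0.25 for F1, F2, M1 and M2. These deviations also carry the cell make-up of each mouse, so whether the numbers pair the mice stayed unknown. The 1 member called between the sexes became 0 with DESeq2, 2 with no filter, 0 without the 3 choroid-rich mice (Astrocyte-like cells, which held the call, could then not be fitted) and 0 to 1 when each mouse was left out. The members called for the product of exposure and sex became 5 with no filter, against 0. Igfbp5 between the sexes turned to -0.21 with the smaller Astrocyte-like cluster left out, and the product term of Igf2 in Microglia-like cells ranged between -10.75 and 3.76 when each mouse was left out, turning to 3.76 without Ctl M2. Of 644 alternative member fold changes 17 moved by more than 1 SD between mice. With the IGF and pathway genes left out of the clustering, 97.3% of the cells kept their class and none of 90 class levels moved by more than 1 SD. Each cluster of that run took the class that most of its cells had before, so this likeness is partly built in. The SD between mice is also a wide limit, as for Igf2 in Microglia-like cells (18.5 ± 30.9 CPM). Thinning moved 101 of 162 shares of cells with a UMI beyond their binomial interval. Depth limits Igf1 and Igfbp6 most, with 98 and 229 UMIs in all, and Ctl F1 with 211 cells.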

Other observations

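The other cells that held IGF genes were few. Ependymal-like cells, the ciliated lining of the ventricles, were 20 in number, 13 of them from Ctl M2. Their pooled level was 270 CPM for Igfbp2 (Poisson interval 178 to 393) and 210 CPM for Igf1r (130 to 321), and no UMI of Igf1, Igfbp3 or Igfbp6 was seen in them. One oligodendrocyte cluster of 69 cells came from Ctl M2 alone. Its Igfbp7 level was 69.2 CPM, against 137 and 134 CPM in the 2 oligodendrocyte clusters shared by all mice, and its Igf1r level was 56.1 CPM, against 54.2 and 55.2 CPM in those.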
